A study of Mus musculus with 4 samples.

Results

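The 9 genes described here encode enzymes and regulatory subunits of glycogen metabolism in skeletal muscle. They were chosen by symbol, and every start site that carried one of these symbols was taken. Start sites were found for 8 of them, Phka1, Phkb, Phkg1, Gys1, Gbe1, Ugp2, Gyg and Ppp1r3a, and none for Pygm. The 8 genes held 155 of the 42207 start sites and were 8 of the 9838 genes in the table.

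Transcript 5′ ends were sequenced in muscle of adult mice with WTSS-seq, a whole transcriptome start site method. The knockout mice (KO, n = 2) were AMPKα2-/- on the C57BL/6 background. Their constitutive deletion removes part of the catalytic domain of AMPKα2, encoded by Prkaa2, in every tissue, and leaves the rest of the gene in place, so that transcripts can still be made. The WT mice (n = 2) were their wild-type controls. All were males, the muscle was the gastrocnemius, and no treatment was named for either group. AMPK is a kinase that is switched on when the energy of the cell runs low.

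Glycogen is the store of glucose in muscle. Glycogen phosphorylase shortens its chains when phosphorylase kinase, a complex of α, β, γ and calmodulin subunits, has activated it. Synthesis runs through UDP-glucose, the protein primer glycogenin, glycogen synthase and the branching enzyme, and targeting subunits bring protein phosphatase 1 to the glycogen particle. AMPK is known to phosphorylate muscle glycogen synthase, and its β subunit binds glycogen.

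The libraries held 1300069 to 2900279 reads, of which 818059 to 1835732 lay outside ribosomal and mitochondrial RNA. Both KO totals exceeded both WT totals. The genes of interest received 3103 and 2197 reads in KO replicates 1 and 2, and 1129 and 1535 reads in WT replicates 1 and 2. Scaled to ppm of the reads outside ribosomal and mitochondrial RNA these were 1690 and 1514 in KO against 1380 and 1681 in WT, so that the groups overlapped. Muscle fibre markers had sites for 10 of 10 genes and summed to 31793 and 35819 ppm in KO against 28471 and 46130 in WT. Of 7 slow fibre markers 6 had sites, with sums of 767 and 904 ppm in KO against 293 and 778 in WT, which overlapped. By normalized count Tnnt1, Tnni1, Tnnc1 and Atp2a2 were higher in both KO libraries, while Myh7 and Myl3 overlapped. Tnni1 and Tnnc1 had 52 and 85 reads in all. Of the 6 adipocyte markers 4 had sites, and their sum was 5225 and 2304 ppm in KO against 5042 and 2850 in WT, nearly all of it from Fabp4. The endothelial markers, 3 of 3 with sites, summed to 28.3 and 12.4 ppm in KO against 33.0 and 44.9 in WT. Both KO sums lay below both WT sums. By normalized count only Pecam1, with 82 reads in all, separated the groups, while Cdh5 and Kdr, with 27 and 29 reads, overlapped. The blood markers, 2 of 5 with sites, summed to 25.1 and 19.3 ppm in KO against 18.3 and 14.2 in WT. For these both KO sums lay above both WT sums. Of the globin genes listed, Hba-a2, Hbb-bs and Hbb-bt had no site, while Hba-a1 had 20 reads in all. Alas2 had 82 reads in all. By normalized count Alas2 was higher in both KO libraries, while Hba-a1 overlapped. Of the 6 fibroblast markers all had sites, with sums of 2311 and 1681 ppm in KO against 2763 and 2718 in WT. As for the endothelial markers, both KO sums lay below both WT sums. By normalized count Col3a1, Dcn and Pdgfra were lower in both KO libraries, while Col1a1, Col1a2 and Lum overlapped. Prkaa2 did not check the labels, as its normalized counts of 149 and 183 in KO against 153 and 186 in WT overlapped (log2 fold change -0.03, DESeq2 adjusted p = 0.994).

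Promoter sequences are shown for the 3 genes whose reads reached into the window around an annotated start, since these place the 5′ ends on the genome. Each sequence is from RefSeq (build GRCm38.p6), runs 5′ to 3′ on the strand of the gene from 100 bases before the annotated start to 49 after it, and has the bases covered by the start site in capitals.
Phkb (chr8:85840888-85841037, plus strand): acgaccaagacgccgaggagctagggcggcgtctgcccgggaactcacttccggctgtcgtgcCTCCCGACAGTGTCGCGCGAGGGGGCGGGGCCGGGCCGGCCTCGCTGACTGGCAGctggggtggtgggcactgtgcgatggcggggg
Phkg1 (chr5:129879039-129879188, minus strand): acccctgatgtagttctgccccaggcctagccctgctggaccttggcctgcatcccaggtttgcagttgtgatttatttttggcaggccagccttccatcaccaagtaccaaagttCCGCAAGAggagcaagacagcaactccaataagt
Ugp2 (chr11:21371218-21371367, minus strand): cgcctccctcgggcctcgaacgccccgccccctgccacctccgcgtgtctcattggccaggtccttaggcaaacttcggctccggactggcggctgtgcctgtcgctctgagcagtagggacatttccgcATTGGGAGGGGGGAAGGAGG

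The Phkb site covered 55 of the printed bases, on both sides of the annotated start. The Phkg1 site covered 8 bases and the Ugp2 site 20 bases, both downstream of it. A few simple promoter motifs were searched, each counted apart, on both strands of the 300-base RefSeq windows of the 9 genes, 10 windows in all because Ugp2 has 2. GGGCGG was in 7 of these 10 windows and in 35.7% of all 32851 promoter windows. TATAAA was found in 1, that of Ppp1r3a, against 13.6% of all windows. CCAAT was in 4, against 37.4%, and CANNTG was in all 10, against 72.3%. These matches describe the letters and do not show that a factor binds.

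The first question was whether the genes differed in level between KO and WT, on reads summed over all sites of a gene. None of the 8 genes was called differentially expressed (DESeq2, adjusted p under 0.1), against 2.67% of all genes tested (125 of 4688). None had an unadjusted p under 0.05 either, against 6.88% of all genes, and the quasi-likelihood test of edgeR gave 0 in both respects. In KO 5 were higher than in WT, with a median log2 fold change of 0.14 beside 0.01 over all genes tested. Both KO libraries lay above both WT libraries in 2 of the 8 genes, Phkb and Gbe1, against 22.0% of genes tested, and below in none, against 19.4%. In bulk muscle, fewer cells of a type and less RNA per cell cannot be told apart.

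**Figure D1:**
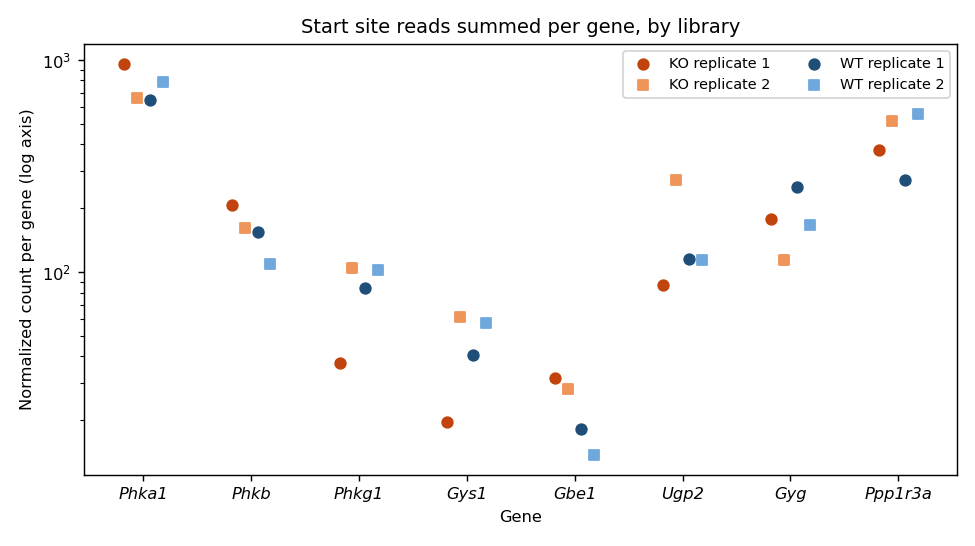
Normalized counts of start site reads summed per gene, on a log axis, with 1 point per library. In 6 of the 8 genes the KO and WT points overlap, and in Phkb and Gbe1 both KO points lie above both WT points.

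Among the genes of glycogen breakdown, Pygm, the muscle form of glycogen phosphorylase, had no row. It lies at 6384408 to 6398464 on the plus strand of chromosome 19 (RefSeq, GRCm38.p6). The nearest sites were in Batf2, 212 kb before it, and in intergenic sequence 467 kb after it. The gap between them was 693 kb long and held 15 protein-coding genes, and 731 of 42026 gaps between neighbouring sites on a chromosome were at least as long. A site was found for 36.4% of RefSeq protein-coding genes. The table lists no site with fewer than 10 reads over the 4 libraries, and Pygm was counted as not detected. Whether its reads were under this minimum or its row was left out of the table used here was not told apart. The liver and brain forms, Pygl and Pygb, had 18 and 13 reads in all.

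Phka1, the α subunit of phosphorylase kinase in muscle, had the most reads of the genes. It lies at 102513975 to 102644301 on the minus strand of chromosome X. It had 1573 and 759 reads in KO replicates 1 and 2, and 463 and 635 in WT replicates 1 and 2. Once scaled for depth these were 961 and 663 against 649 and 791, so that KO replicate 1 was highest and the groups overlapped. The mean normalized count was 812 ± 210 in KO against 720 ± 100 in WT (SD, n = 2), a log2 fold change of 0.17 (95% interval -0.67 to 1.01, DESeq2 adjusted p = 0.988). Without KO replicate 1 it was -0.11, and on exonic sites alone it was -0.34.

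Phkb, the β subunit, spans 85840853 to 86064251 on the plus strand of chromosome 8. Its reads numbered 338 and 184 in KO against 110 and 88 in WT. The normalized counts of 206 and 161 in KO lay just above those of 154 and 110 in WT. The log2 fold change was 0.48 (95% interval -0.54 to 1.5, DESeq2 adjusted p = 0.925). Gm16167, Gm19171 and Itfg1 overlap this gene.

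Phkg1, the catalytic γ subunit of muscle, lies at 129863431 to 129879134 on the minus strand of chromosome 5 and overlaps Sumf2. It had 61 and 120 reads in KO against 60 and 82 in WT. KO replicate 1 was lowest and KO replicate 2 highest by normalized count, 37.3 and 105 against 84.1 and 102 in WT. The log2 fold change of -0.40 (95% interval -1.72 to 0.92, DESeq2 adjusted p = 0.963) turned to 0.18 without KO replicate 1.

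In the synthetic arm, Ugp2, which makes UDP-glucose, spans 21321126 to 21371267 on the minus strand of chromosome 11, where it overlaps Vps54 and Mir1933. It had 142 and 311 reads in KO against 82 and 92 in WT. Its normalized counts were 86.7 and 272 in KO against 115 and 115 in WT, so that the KO libraries stood on either side of WT. The log2 fold change was 0.64 (95% interval -0.57 to 1.85, DESeq2 adjusted p = 0.907), and -0.39 without KO replicate 2.

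Gyg encodes glycogenin, which starts a new glycogen chain on itself. It lies at 20122083 to 20155117 on the minus strand of chromosome 3. Reads were 292 and 131 in KO against 179 and 134 in WT, and normalized counts were 178 and 114 against 251 and 167. The groups overlapped, and the log2 fold change was -0.51 (95% interval -1.54 to 0.52, DESeq2 adjusted p = 0.916).

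Gys1, muscle glycogen synthase, lies at 45434839 to 45456617 on the plus strand of chromosome 7 and overlaps Ruvbl2. Its reads were 32 and 70 in KO against 29 and 46 in WT. KO replicate 1 had the lowest normalized count, 19.5, and KO replicate 2 the highest, 61.2, with 40.7 and 57.3 in WT between them. The log2 fold change of -0.29 (95% interval -1.87 to 1.29, DESeq2 adjusted p = 0.992) was 0.33 without KO replicate 1.

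Gbe1, the branching enzyme, spans 70313949 to 70569720 on the plus strand of chromosome 16. It was the most sparsely read, with 52 and 32 reads in KO against 13 and 11 in WT. Normalized counts were 31.8 and 28.0 in KO against 18.2 and 13.7 in WT, and the groups did not overlap. Its log2 fold change was the largest of the 8 at 0.91, with the widest interval (-0.95 to 2.76, DESeq2 adjusted p = 0.920), and it stayed between 0.68 and 1.13 as each library was left out.

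Ppp1r3a, the targeting subunit of protein phosphatase 1 in striated muscle, lies at 14713822 to 14755274 on the minus strand of chromosome 6. It had 613 and 590 reads in KO against 193 and 447 in WT. The WT libraries were the lowest and the highest by normalized count, 271 and 557, with 374 and 516 in KO between them. The log2 fold change was 0.10 (95% interval -0.87 to 1.07, DESeq2 adjusted p = 0.992), with -0.32 without WT replicate 1, -0.14 without KO replicate 2 and 0.69 without WT replicate 2.

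**Figure D2:**
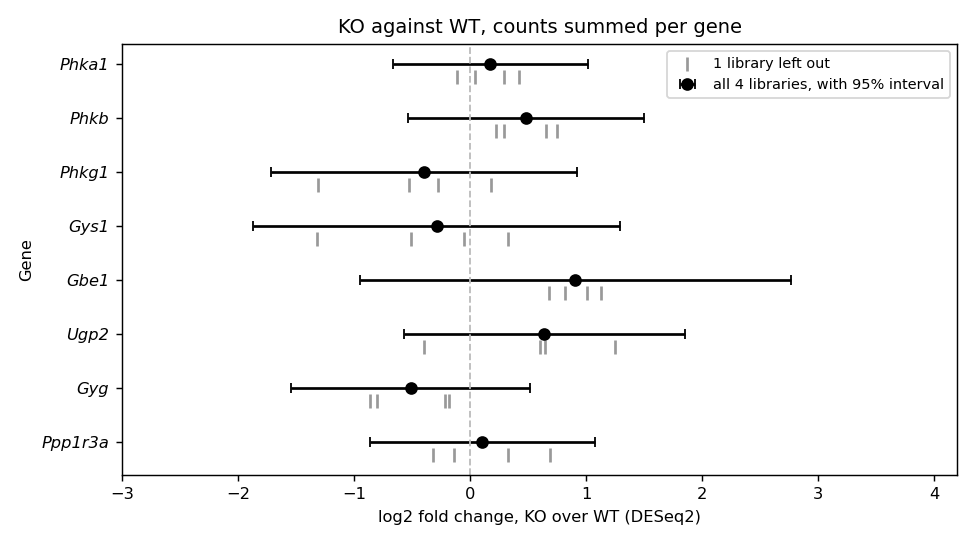
Log2 fold change of KO over WT per gene (DESeq2, all 4 libraries; bars are 95% intervals), with grey ticks for the values when 1 library was left out. All 8 intervals include 0, and in 5 genes (Phka1, Phkg1, Gys1, Ugp2 and Ppp1r3a) at least 1 tick lies on the other side of 0.

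The genes were set in order by ppm of reads outside ribosomal and mitochondrial RNA per kb of gene span, as transcript lengths were not used here. Gene span includes introns, so this order is not one of transcript amount. Phkb with 720 reads over 223 kb came below Gyg with 736 reads over 33.0 kb. Medians over the 4 libraries were 8.93 for Ppp1r3a, 4.97 for Phkg1, 4.84 for Phka1 and 4.63 for Gyg. They were 2.00 for Ugp2, 1.92 for Gys1, 0.585 for Phkb and 0.0742 for Gbe1. Ppp1r3a ranged from 5.69 to 11.8, Phkg1 from 2.12 to 5.72 and Phka1 from 4.01 to 6.57, so that these neighbours overlapped. The ranges of all other neighbours in this order overlapped too, except those of Phkb, 0.431 to 0.824, and Gbe1, 0.0471 to 0.111. Compared within each library, Ppp1r3a lay above Phkg1 and Phka1 in every library, and so did Phkb above Gbe1. The other neighbours changed order between libraries.

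The second question was whether single start sites differed. Of the 155 sites 46 had enough reads for an adjusted p, and 0 were called, against 3.21% of all sites tested (357 of 11112). An unadjusted p under 0.05 was found at 5 sites, against 4.05% of all sites, and edgeR also gave 5. Of these, the sites 14755043 and 14719528 of Ppp1r3a and 102586174 of Phka1 were found by both tools, while 85901285 of Phkb and 20128816 of Gyg were found by edgeR alone. Both KO libraries lay above both WT libraries at 28 sites (18.1%), against 22.2% of all sites, and below at 16 (10.3%), against 13.9%. Reads in KO and none in WT were found at 20 sites (12.9%), against 11.8% of all sites. Reads in KO replicate 1, the deepest library, alone were found at 9 sites (5.81%), against 4.57% of all sites. These shares were close to those of the whole table.

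Ppp1r3a had 3 of the 5 sites found by DESeq2. The first, at 14755040 to 14755047 and 231 bp downstream of the annotated start, lay within an annotated transcript (class c). It had 16 and 30 reads in KO against 0 and 0 in WT. Both KO libraries were above the floor of 3 reads and neither WT library had a read. Its mean normalized count was 18.2 ± 10.9 in KO, at least 4.83-fold higher than the floor in WT, with an unadjusted p of 0.00408 and a DESeq2 adjusted p of 0.114, or 0.174 by edgeR. Leaving out single libraries gave adjusted p-values of 0.437 to 1.00.

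Ppp1r3a had 6 sites in its first 1000 bp, none within 100 bp of the annotated start. The site 151 bp downstream had 20 reads in KO replicate 1 and 0 in the other libraries. The other sites had reads in both groups. There were 3 and 7 reads in KO against 4 and 17 in WT at 448 bp, 29 and 4 against 10 and 20 at 571 bp, and 5 and 4 against 7 and 1 at 631 bp, and after scaling for depth KO and WT overlapped at each of these. At 923 bp there were 4 and 9 reads in KO against 0 and 2 in WT, where both KO libraries stayed above both WT libraries after scaling. These neighbours were listed after their values were seen.

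**Figure D3:**
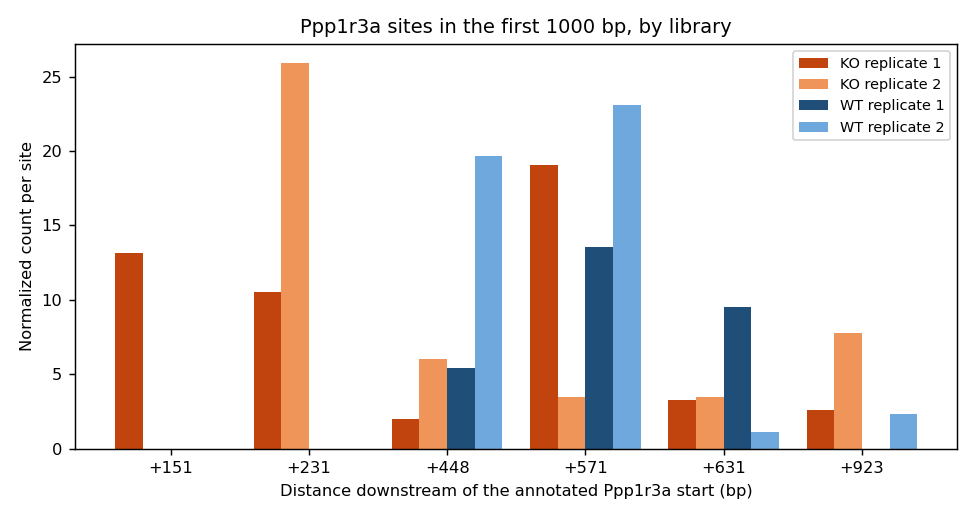
Normalized counts per library at the 6 sites in the first 1000 bp of Ppp1r3a, by distance from the annotated start. At 231 bp only the KO libraries have reads, 16 and 30, while at 448, 571 and 631 bp all 4 libraries have reads.

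The second Ppp1r3a site, at 14719528, was lower in KO, with 7 and 6 reads against 14 and 39 in WT. All KO counts were below all WT counts, and the log2 fold change was -2.72 (unadjusted p = 0.0256, DESeq2 adjusted p = 0.358). The third, at 14717281, rested on KO replicate 1, with 56 reads there and 1, 1 and 0 elsewhere. The site with most reads of the gene, 14716562, had 138 and 137 reads in KO against 27 and 91 in WT, a log2 fold change of 0.55 (DESeq2 adjusted p = 1.00).

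Phka1 held the other 2 of these sites. The one at 102586174 crossed an exon and an intron (class e) and had 61 and 68 reads in KO against 88 and 142 in WT. This was 3.88 and 8.96% of the gene's reads in KO against 19 and 22.4% in WT, without overlap. The mean normalized count was 49.4 ± 13.2 in KO against 142 ± 31.5 in WT, and the log2 fold change was -1.52 (SE 0.71, unadjusted p = 0.0319, DESeq2 adjusted p = 0.408). The one at 102524126 had 39 reads in KO replicate 1, 1 in KO replicate 2 and none in WT, so that it rested on 1 library.

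The main site of Phka1 was intronic, at 102631352, and took 35.8% of the gene's reads. It had 708 and 253 reads in KO against 145 and 123 in WT, higher in both KO libraries also after scaling (465 and 218 against 197 and 142). The log2 fold change was 1.01 (SE 0.65, DESeq2 adjusted p = 0.764). The main sites of the remaining genes were likewise not called. Gyg had 214 and 60 reads in KO against 39 and 40 in WT at its intronic site 20138917 (48.0% of the gene's reads). Scaled for depth these were 140 and 51.8 against 52.9 and 46.2, with overlap, and the log2 fold change of 0.96 ranged from 0.10 to 1.48 as single libraries were left out. Ugp2 had 74 and 208 against 52 and 52 at the intronic site 21340780 (61.6%). After scaling for depth KO replicate 1 was the lowest and KO replicate 2 the highest at this Ugp2 site.

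The main sites of Phkb, Phkg1, Gys1 and Gbe1 had fewer reads. The top site of Phkb, 85991092 in an intron, had 68 and 4 reads in KO against 17 and 4 in WT, and that of Phkg1, 129863953 within an annotated transcript, had 9 and 51 against 14 and 12. In both, 1 library held most of the reads. The top site of Gys1, 45439907 with an exonic overlap, had 5 and 9 reads in KO against 10 and 21 in WT. That of Gbe1, 70409855 in an intron, had 24 and 7 against 2 and 1.

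**Figure D4:**
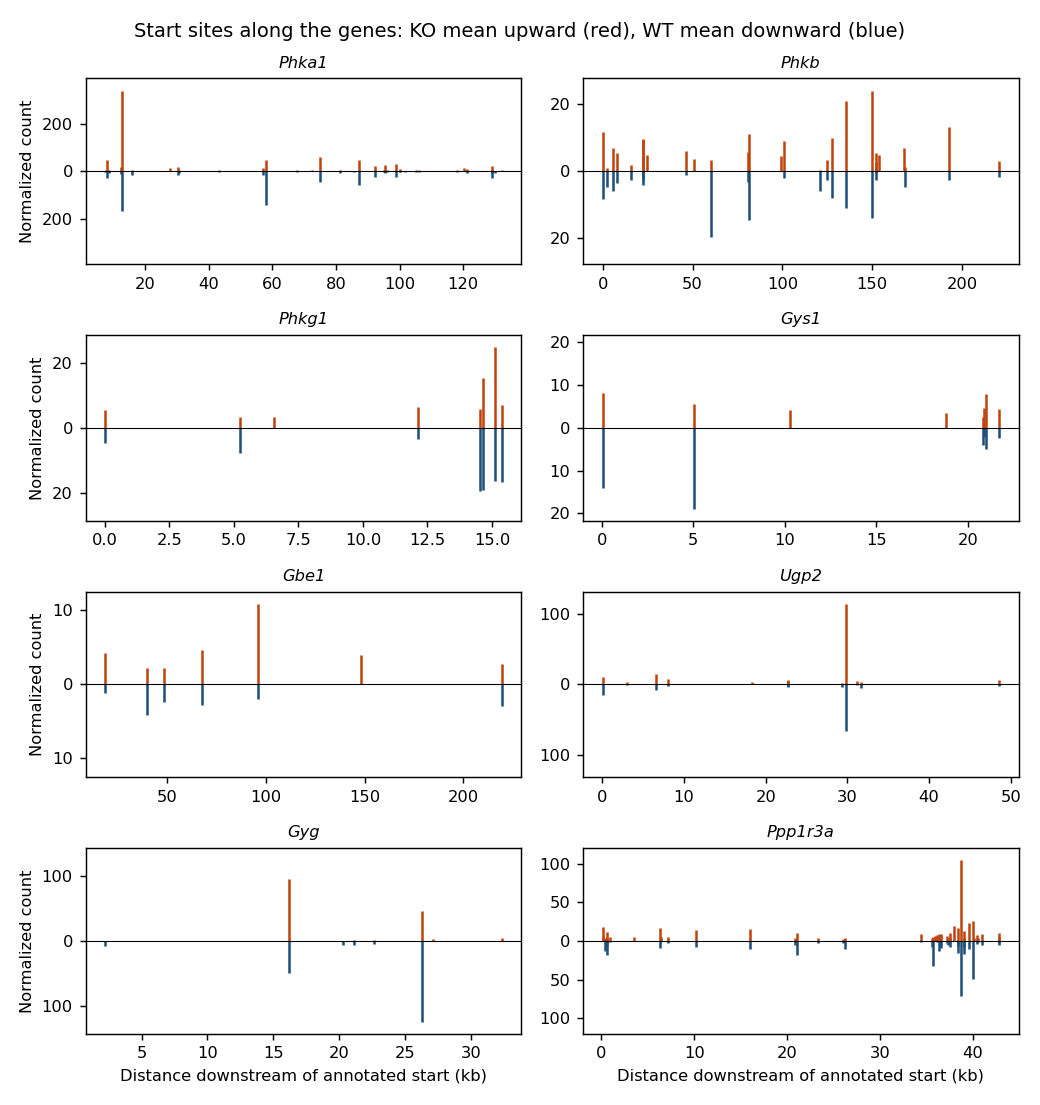
Mean normalized count of each site along 8 genes, with KO drawn upward and WT downward, by distance in kb downstream of the annotated start. Ugp2 and Phka1 are led by 1 intronic site and Gyg by 2, while the Ppp1r3a sites gather in the last part of the gene.

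The third question was whether the use of sites within a gene differed. Of the 8 genes 7 had at least 2 sites with enough reads, and Gbe1 did not. None was called (diffSpliceDGE of edgeR, Simes adjusted p under 0.1), against 1.77% of the 2145 genes tested. Ppp1r3a alone had an unadjusted p under 0.05 (0.0430, adjusted p = 0.504), against 9.04% of genes. In Gyg the main 2 sites had 214 and 60 reads in KO against 39 and 40 in WT at 20138917, and 53 and 65 against 123 and 71 at 20128816. Only in KO replicate 1 did 20138917 hold more reads than 20128816. The Simes test gave an adjusted p of 0.882 for Gyg, while the gene-level F test on the same 2 sites gave an unadjusted p of 0.0408 and an adjusted p of 0.345.

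Sites were then placed within the genes. In 4 of the 8 genes, Phkb, Phkg1, Gys1 and Ugp2, a site lay within 100 bp of an annotated start, beside 12.7% of the 6780 genes with an annotated start and a site. By site the shares were 2.58% and 3.04%. The Phkb site, 4 bp downstream of the start, had 12 and 18 reads in KO against 6 and 7 in WT. The Phkg1 site at 17 bp had 10 and 5 against 1 and 7, the Gys1 site at 57 bp 0 and 19 against 7 and 16, and the Ugp2 site at 40 bp 14 and 15 against 6 and 20. After scaling for depth KO and WT overlapped at each of these 4 sites.

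Reads within 100 bp of a start made up 1.16 and 2.59% of the reads of the 8 genes in KO against 1.77 and 3.26% in WT, below the 6.48 to 10.9% of all genes with an annotated start. Intronic sites took 66.2 and 59.4% of the genes' reads in KO against 61.8 and 42.4% in WT. Over all genes with an annotated start the share was 28.3 to 39.6%. By site the intronic shares were closer, 60% and 53.9%. Phka1 held more intronic reads than any other of the genes in every library, 1183 and 529 in KO and 276 and 314 in WT. A read inside a gene can mark an internal start or the end of an RNA fragment, and these were not told apart here.

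The genes differed in this. All 7 Gbe1 sites, 24 of 27 Phkb sites and 29 of 42 Phka1 sites were intronic, whereas 27 of 43 Ppp1r3a sites and 6 of 8 Phkg1 sites lay within an annotated transcript. The intronic share of Phka1 was 75.2 and 69.7% in KO against 59.6 and 49.4% in WT, without overlap. Its normalized intronic counts were 723 and 462 in KO against 387 and 391 in WT, and its exonic counts were 228 and 200 against 262 and 400. The intronic share of Gys1 was 28.1 and 15.7% in KO, from 9 and 11 reads, and 0 in both WT libraries, which held 29 and 46 reads of the gene. In Phkb, Phkg1, Ugp2, Gyg and Ppp1r3a the intronic shares of KO and WT overlapped. With 2 libraries per group an exact permutation test cannot go below p = 0.33, so no test was made of these shares. How many of all genes had intronic shares without overlap was not counted. Phka1 and Gys1 are therefore not read as set apart from other genes. The intronic share over all genes with an annotated start was 39.6 and 30.8% in KO against 37.2 and 28.3% in WT, where the groups overlapped.

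**Figure D5:**
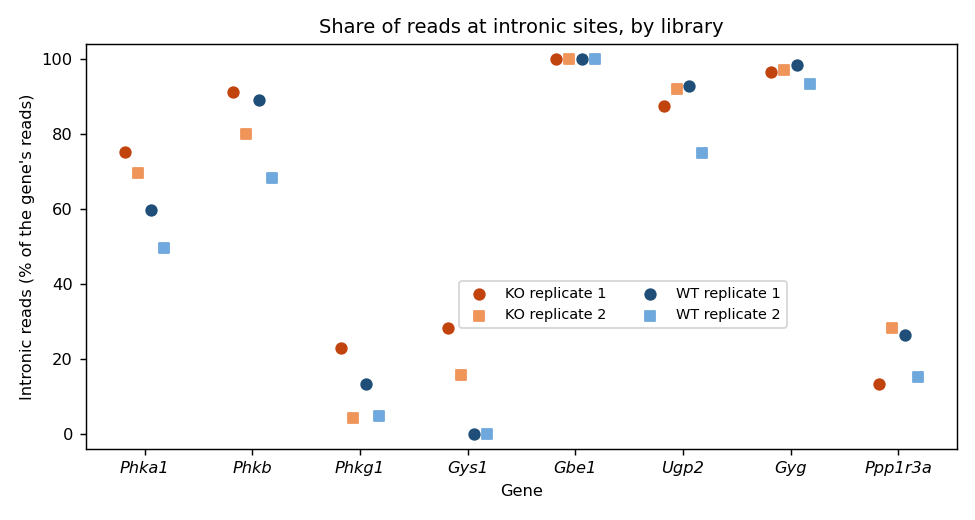
Share of each gene's reads that lay at intronic sites, with 1 point per library. Gbe1 is at 100% in all libraries, Phka1 is higher in both KO libraries than in both WT libraries, and Gys1 is at 0 in both WT libraries. In Phkb, Phkg1, Ugp2, Gyg and Ppp1r3a the groups overlap.

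A further 31 genes of the glycogen pathway were examined, among them other subunits and isoforms and phosphatase and kinase genes that act on glycogen synthase. Sites were found for 19 of them and 11 were tested. None was called (DESeq2, adjusted p under 0.1), 2 of the 11 were higher in KO, and the median log2 fold change was -0.37. An unadjusted p under 0.05 was found for 1, Ppp1r3c, which encodes a further glycogen-targeting subunit of protein phosphatase 1. It had 362 and 289 reads in KO against 263 and 434 in WT. Normalized counts were 221 and 253 in KO against 369 and 541 in WT, without overlap, and the log2 fold change was -0.94 (SE 0.46, unadjusted p = 0.0394, DESeq2 adjusted p = 0.472).

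Calm3, which encodes calmodulin, the δ subunit of phosphorylase kinase, had a log2 fold change of -0.30 (DESeq2 adjusted p = 0.962). Gsk3b, a kinase of glycogen synthase, had 365 and 295 reads in KO against 132 and 87 in WT and a log2 fold change of 0.71 (DESeq2 adjusted p = 0.787). Pgm2, a phosphoglucomutase that links glucose 1-phosphate to glycolysis, had a log2 fold change of -0.13 (DESeq2 adjusted p = 0.992).

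At single sites of these genes 2 of 40 tested (5.0%) were called, beside 3.21% of all sites tested. In Pgm2 an intronic site at 99982275 to 99982277 of chromosome 4 had 2 and 5 reads in KO against 62 and 33 in WT and fell by 4.48 on the log2 scale (SE 1.13, DESeq2 adjusted p = 0.00866). Pgm2 was also the 1 gene of 8 tested that was called for site use (diffSpliceDGE, Simes adjusted p = 0.0975, beside 1.77% of all genes tested), a call that was lost on primary chromosomes alone (0.106), with a replicate block (0.361) and as single libraries were left out (0.235 to 0.996). In Gsk3b an intronic site at 38179646 to 38179647 of chromosome 16 had 54 and 25 reads in KO and none in WT. This was at least 7.57-fold above the floor (DESeq2 adjusted p = 0.0271). With no read in WT the Gsk3b site passed the filter on mean count through its KO reads alone, so its call is no support for a difference. The Gsk3b call was lost with independent filtering off. By edgeR the adjusted p was 0.107 for the Pgm2 site and 0.102 for the Gsk3b site, and neither was called. Leaving out single libraries gave adjusted p-values of 0.0451 to 0.406 in Pgm2 and 0.130 to 1.00 in Gsk3b. Both sites were picked for their values. Pgm2 shares chromosome 4 with Prkaa2, the targeted gene. Whether sequence linked to the deletion differs between KO and WT at the Pgm2 site was not tested.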

How the data were processed

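WTSS-seq starts from RNA depleted of ribosomal RNA, which is reverse transcribed, size selected and amplified by PCR, so that a read marks the 5′ end of a transcript or fragment. The authors deposited 1 table of raw read counts, with a row per start site and a column per library, in the build GRCm38.p5. The mapping and clustering of reads were described for companion libraries of 3′ ends. Site classes are Cuffcompare codes (i intronic, c contained in a transcript, e across exon and intron, o other exonic overlap). The line of column totals was left out, and 4.34 to 4.95% of reads had no gene. No molecular identifiers were described, so floors of 3 reads (1.63 to 3.67 ppm of reads outside ribosomal and mitochondrial RNA) cover counting error only. Each library came from a separate mouse, and replicates differed beyond sampling noise (chi-square per degree of freedom over the members' sites 8.41 in KO and 4.00 in WT).

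Counts per gene and per site were fitted over the whole table with DESeq2 (version 1.42.0 under R 4.3.3; Wald test, Benjamini-Hochberg adjusted p under 0.1, independent filtering at a mean of 16.5 per gene and 8.76 per site), as the study did, and with edgeR (version 4.0.16; quasi-likelihood test). Site use was tested with diffSpliceDGE. These steps were tested on simulated data. Positions were compared in Python (version 3.11.15) with RefSeq starts, promoters and genes of GRCm38.p6, which has the same primary coordinates. Genes were summed over all sites of a symbol. Alternatives covered other tools, scaling, filters, thresholds, site classes, a replicate block and each library left out.

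The members, lists and tests were chosen with earlier results of these data known. Named were the 9 genes, their top site, sites within 100 bp of a start, sites with an adjusted p under 0.1 or an unadjusted p under 0.05, and, of the 31 further genes, those with an unadjusted p under 0.05 and the 5 with most reads, 1 of which is not reported here. A search for genes with a pattern like Pygm was void, as Pygm had no site.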

Additional observations from a re-analysis of the deposited data

How the results depend on the processing

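No gene of the 8 was called under any alternative of the gene comparison, and none in the site use test, the range over single libraries left out being 0 to 0. In the site comparison 1 site was called, that of Ppp1r3a at 14755043, when the test was limited to sites with at least 10 reads in 2 libraries (DESeq2 adjusted p = 0.0969), and 0 otherwise. With no read in WT this site passed that filter through its KO reads alone, so the call is no support for a difference. Directions turned as libraries were left out, over ranges of log2 fold change of -0.11 to 0.43 for Phka1, -1.31 to 0.18 for Phkg1, -1.32 to 0.33 for Gys1, -0.39 to 1.25 for Ugp2 and -0.32 to 0.69 for Ppp1r3a. Without KO replicate 1 the log2 fold change was -0.11 for Phka1, 0.18 for Phkg1 and 0.33 for Gys1. Without KO replicate 2 it was -0.39 for Ugp2 and -0.14 for Ppp1r3a, and without WT replicate 1 it was -0.32 for Ppp1r3a. On exonic sites alone it was -0.34 for Phka1, where intronic reads are removed by construction; the other causes were not tested. Phkb, Gbe1 and Gyg kept their direction under every alternative run.

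The labels give KO and WT the same replicate numbers, but only as numbers. The correlation of deviations of same-numbered libraries was 0.119 over genes and 0.0890 over sites. With the replicate block 0 genes and 0 sites of the list were called. Over the whole table the block left 145 sites called higher and 50 lower, against 259 and 98 without it (DESeq2), and 1 higher and 0 lower against 48 and 32 (edgeR). Size factors from reads outside ribosomal and mitochondrial RNA gave 170 and 111, and moved the median log2 fold change of tested sites from 0.10 to -0.12.

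Most of the 155 sites had too few reads for an adjusted p, and the floor of 3 reads was higher in the shallower WT libraries (3.67 and 3.29 ppm) than in KO (1.63 and 2.07 ppm). Gene sums mix intronic and exonic reads.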
